A study of Mus musculus with 4 samples.

Results

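NF-Y is a transcription factor of 3 subunits, and the regions described here are those where the sites of all 3 coincided while the NF-YA site held fewer than 70 sequencing tags. Sites of the NF-YA, NF-YB and NF-YC lists whose neighbouring centres lay within 200 bp were chained into regions. Regions with at least 1 site of each list and a highest NF-YA tag count below 70 were kept. This gave 851 regions, which is 15.9% of the 5350 regions of the series and 49.4% of the 1724 regions that held all 3 subunits. The other 873 regions with all 3 subunits had 70 or more NF-YA tags and serve below as the stronger group. Because the members were chosen by their NF-YA tags and by the presence of every subunit, their NF-YA tags and their occupancy by all 3 are given as a description. The number depends on the site threshold: with sites of p at or below 0.0001, 196 regions met the rule.

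The histone-fold subunits NF-YB and NF-YC pair with each other and form the surface onto which NF-YA docks. NF-YA then reads the CCAAT box, a sequence common in the promoters of cell-cycle and housekeeping genes. NF-Y is also known for opening chromatin at enhancers of stem cells, which is the setting named in the series' title. Since the subunits bind DNA as a complex, regions where the signals of the subunits differ in size are of interest for how evenly the 3 were recovered.

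Chromatin immunoprecipitation and sequencing (ChIP-seq) was done in E14Tg2a cells, an embryonic stem cell line of the 129/Ola mouse strain that is male in origin, at passages 20 to 35. Cells grown in serum with leukaemia inhibitory factor were fixed with 1% formaldehyde for 10 min, and 5000000 cells and 2 µg of antibody went into each immunoprecipitation. There was 1 library each for NF-YA (mouse monoclonal antibody), NF-YB (rabbit polyclonal), NF-YC (rabbit polyclonal, per the labels) and input DNA, all from the same line. The labels name the antibody as the difference between the groups, the cells are those of a single line, and no group has a replicate. Every comparison below therefore describes these libraries, with no replicate check and no p-value across regions, which are not replicates.

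A tag is a sequencing read kept for site calling, with 1 kept per genome position. The 3 libraries kept 11479998 (NF-YA), 13859303 (NF-YB) and 11390494 tags (NF-YC), and levels below are also given as tags per 1000000 kept tags (RPM). The lists stopped at 14 tags for NF-YA and NF-YC and at 15 for NF-YB. A region missing from a list may still have been bound by that subunit. Intervals beside shares are exact (Clopper-Pearson) 95% binomial intervals over regions, and those beside tag counts are exact Poisson intervals. Both cover counting error only. Positions are those of the mouse build mm9, as deposited. Gene annotation and sequence of that build were not used here, so the regions are named by position.

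By description, the NF-YA sites of the members ranged from 14 to 69 tags with a median of 42 (quartiles 30 and 55). Their median percentile in the NF-YA list was 58.8, and 6 of 851 fell in its lowest 10%. The stronger group had a median of 112 NF-YA tags, so the members were weak beside other regions of all 3 subunits and not beside NF-YA sites at large.

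NF-YB, which the tag limit did not use, was also lower in the members. Their NF-YB sites held 15 to 220 tags with a median of 39 (quartiles 25 and 61), against 17 to 351 with a median of 84 (54 and 134) in the stronger group. Scaled to library size, the medians were 2.81 and 6.06 RPM. NF-YC followed the same order. Its sites held 14 to 176 tags with a median of 29 (21 and 41) in the members and 18 to 267 with a median of 65 (47 and 90) in the stronger group, which is 2.55 against 5.71 RPM. The ranges of the groups overlapped widely for both subunits, while the quartiles did so narrowly for NF-YB and not at all for NF-YC.

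Within the lists of both partners the members sat below the middle. The median percentile of tag count was 45 for NF-YB (the stronger group had 79.2) and 38.2 for NF-YC (79). In the members, 44.1% of NF-YB sites (40.7 to 47.5) and 32.8% of NF-YC sites (29.6 to 36.1) lay above the median of the whole list. In the stronger group, 87.1% of NF-YB sites and 89.2% of NF-YC sites lay above these medians. Members above both medians numbered 161, and members below both numbered 358. These joint counts are a description without a background. How far they follow from the separate shares was not tested. The top 10% of the NF-YB list, which with ties is 10.1% of its sites, held 19 members (2.23%). The top 10% of the NF-YC list, again 10.1% with ties, held 16 (1.88%). No member lay in the top of both, so the 35 members that reached a top did so with 1 of the 2 histone-fold subunits. With so few members in either top, a lack of overlap could arise even if the tops were unrelated. The overlap was not counted in the stronger group, so nothing is read from its absence in the members. The bottom 10% held 65 members for NF-YB (7.64%, where 9.91% of all sites fell) and 73 for NF-YC (8.58%, where 9.5% fell). The members were thus scarce at the top of both lists. At the bottom their share was below the background for NF-YB (5.94 to 9.63), and for NF-YC its interval (6.78 to 10.7) held the background.

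**Figure D1:**
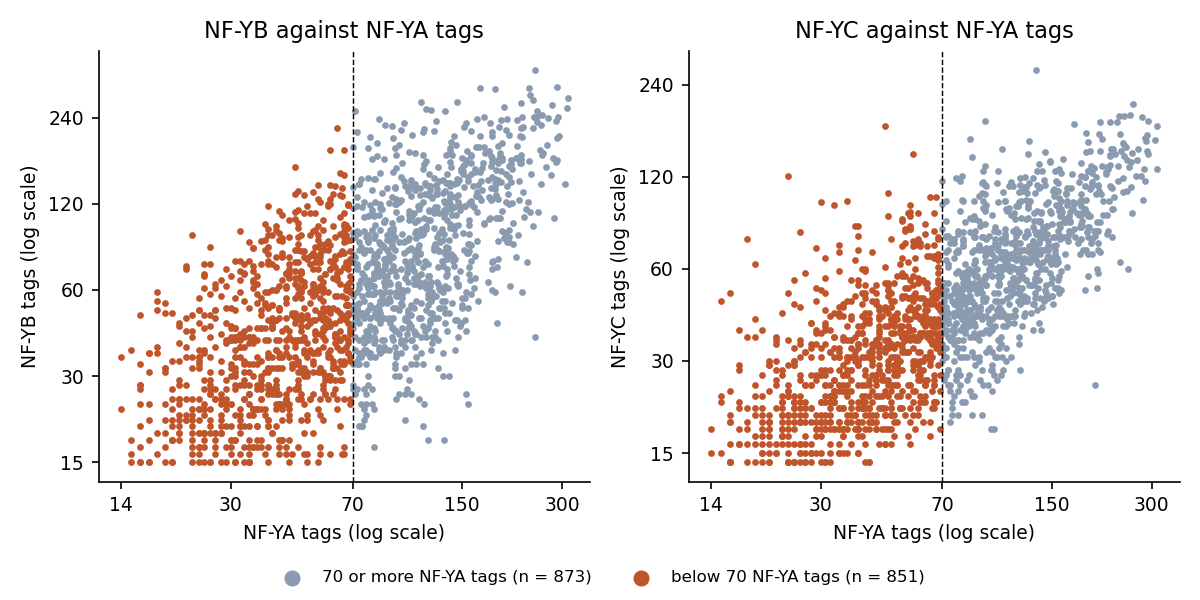
NF-YB tags (left) and NF-YC tags (right) against NF-YA tags, 1 point per region of all 3 subunits, on log axes; the dashed line marks the limit of 70 NF-YA tags. The 851 members (orange) spread from the minimum of each list up to 220 NF-YB and 176 NF-YC tags, and their cloud continues that of the 873 stronger regions (grey) without a gap.

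The limit of 70 tags cut a continuous distribution. Regions of all 3 subunits with 60 to 69 NF-YA tags numbered 141 and had medians of 53 NF-YB and 37 NF-YC tags, and the 128 regions with 70 to 79 had medians of 53 and 43. The 3 members nearest the limit by rule each held 69 NF-YA tags. They lay on chromosome 5 at 125873491 to 125873591 (90 NF-YB and 50 NF-YC tags), chromosome 9 at 20896491 to 20896571 (77 and 52 tags) and chromosome 19 at 5688851 to 5688911 (82 and 46 tags). Just outside it, with 70 NF-YA tags each, were chromosome 11 at 78061391 to 78061551 (190 NF-YB and 32 NF-YC tags), chromosome 7 at 17647791 to 17647871 (137 and 46 tags) and chromosome 9 at 72286251 to 72286351 (53 and 98 tags). Ties at 69 and at 70 tags were broken by the sum of the 3 signals, so these are the best covered regions on either side.

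The share of NF-YA regions that also held both partners was higher in each successive class of NF-YA tags. All 3 subunits were found at 23.8% of the 3577 regions with an NF-YA site below 70 tags (22.4 to 25.2), beside 37.2% of all 4631 regions with an NF-YA site and 82.8% of those at or above the limit (80.4 to 85.1). Among regions of 14 to 19 NF-YA tags the share was 4.11% (41 of 997; 2.97 to 5.54). It was 16.3% at 20 to 29 tags, 28.9% at 30 to 39 tags, 39.9% at 40 to 49 tags and 49.7% at 50 to 59 tags. At 60 to 69 tags it reached 60.5% (141 of 233; 53.9 to 66.8), and at 70 to 79 tags 66.0% (58.8 to 72.6), with overlapping intervals across the limit. Each list ends at a minimum tag count, and the part of that minimum in this gradient was not tested.

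Partner tags were also higher in members with more NF-YA tags. From 14 to 19 up to 60 to 69 NF-YA tags, the median NF-YB count went from 24 to 53 and the median NF-YC count from 20 to 37. As a description across the 851 regions, Spearman's rho of NF-YA was 0.44 with NF-YB and 0.48 with NF-YC, and that of the 2 partners with each other was 0.33. The points share the library of each subunit and the input used for calling, and the limit on NF-YA and the minimum of each list narrow the ranges. The pair of histone-fold subunits thus had the lowest of the 3 coefficients, as it also did in the stronger group (0.47, against 0.50 and 0.63).

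**Figure D2:**
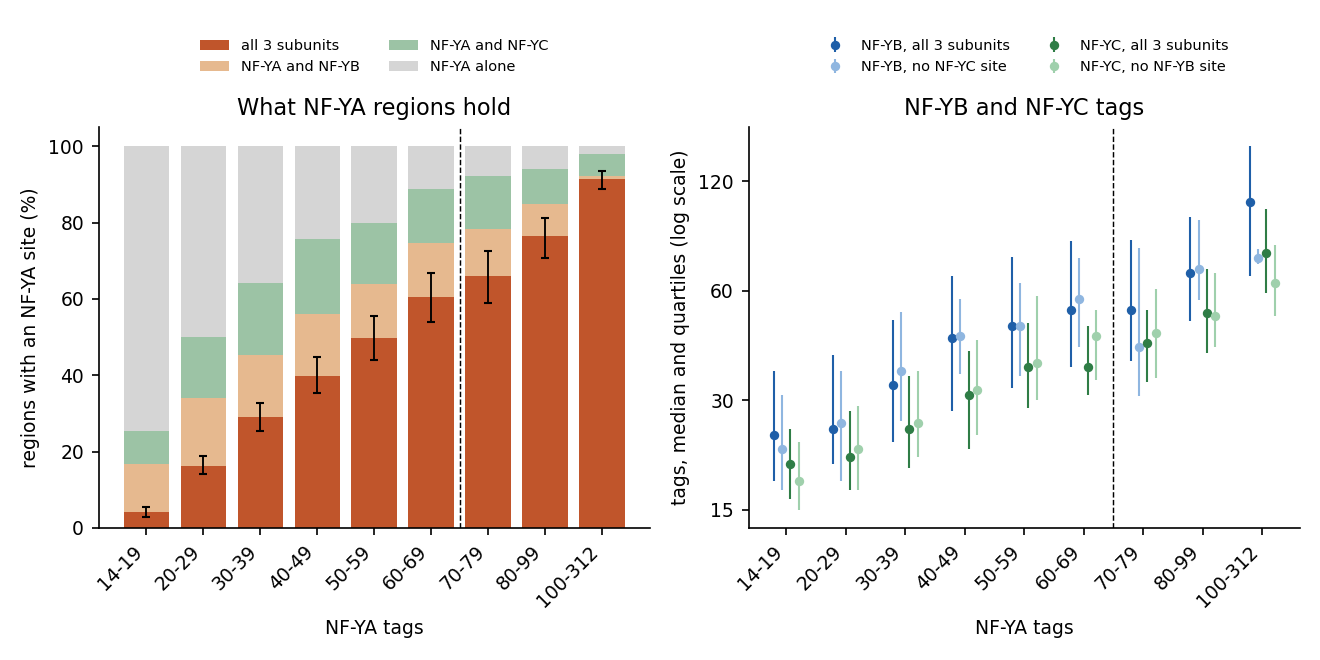
Left, what regions with an NF-YA site held, in percent, by class of NF-YA tags; bars on the all-subunit share are exact 95% intervals. Right, median NF-YB and NF-YC tags with quartiles (log scale) in regions of all 3 subunits and in regions lacking the other partner. The all-subunit share climbs from 4.11% to 60.5% left of the dashed limit, while dark and light points of a colour lie close together within most classes.

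The regions most like the members are those below the same NF-YA limit that lacked 1 partner: 548 with NF-YA and NF-YB but no NF-YC site, and 528 with NF-YA and NF-YC but no NF-YB site. At like NF-YA tags, the partner that was present had much the same tag count whether or not the other was found. With 30 to 39 NF-YA tags, the median NF-YB count was 33 in the members (quartiles 23 and 50) and 36 in regions without NF-YC (26.2 and 52.5). With 40 to 49 NF-YA tags the medians were 44.5 and 45, and with 50 to 59 they were 48 and 48. For NF-YC, the medians were 25 in the members and 26 in regions without NF-YB at 30 to 39 NF-YA tags, 31 and 32 at 40 to 49, and 37 and 38 at 50 to 59. The widest gap was at 60 to 69 NF-YA tags, where NF-YC had a median of 37 in the members (31 to 48) and 45 without NF-YB (34 to 53, 33 regions). Quartiles overlapped in each of these classes. Pooled over all NF-YA tags below the limit, the members had more NF-YB tags (39 against 32) and more NF-YC tags (29 against 25.5), but they also had more NF-YA tags (42, against 28 and 32).

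The order of the subunits by RPM is given as a description, since the limit on NF-YA tags shapes it. NF-YA had the highest RPM at 436 of the 851 members (51.2%, 47.8 to 54.6), NF-YB at 261 (30.7%, 27.6 to 33.9) and NF-YC at 154 (18.1%, 15.6 to 20.9). Over all regions of 3 subunits these shares were 66.9%, 21.7% and 11.4%. All 3 subunits lay within 2-fold of each other at 465 members (54.6%), beside 46.9% of all regions of 3 subunits. NF-YA exceeded both others at least 2-fold at 44 members (5.17%, beside 12.3% of all), NF-YB at 30 (3.53%, beside 2.09%) and NF-YC at 17 (2.00%, beside 1.04%). Nothing is read from these counts, as each includes NF-YA.

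The balance of NF-YB and NF-YC, which the limit did not use, had overlapping medians in the 2 groups. The median ratio was 1.08 in the members (95% interval of the median over regions 1.00 to 1.14; quartiles 0.73 and 1.61) and 1.11 in the stronger group (1.06 to 1.16; quartiles 0.77 and 1.56). NF-YB was at least 2-fold above NF-YC at 127 members (14.9%, 12.6 to 17.5), where 12.9% of all regions of 3 subunits were. NF-YC was at least 2-fold above NF-YB at 82 members (9.64%, 7.74 to 11.8), where 9.16% of all were. Together 209 members (24.6%, 21.7 to 27.6) were 2-fold apart in either direction, beside a background of 22.1%. These shares are near the background, of which the members themselves are 49.4%. In the stronger group alone, 19.7% (17.1 to 22.5) were 2-fold apart in either direction, 11.0% toward NF-YB and 8.71% toward NF-YC. The members' shares were the higher ones, and the intervals for either direction together overlapped. The members' lower tag counts also widen the counting error of a ratio. Its 95% interval excluded 1 at 334 members (39.2%, 36.0 to 42.6), beside 46.1% of all regions of 3 subunits. Of these, 206 leaned to NF-YB (24.2%, background 28.6%) and 128 to NF-YC (15.0%, background 17.5%). RPM scales for library size alone, and each subunit had its own antibody. A ratio of 1 is therefore not a measured point of equal binding, and a lean describes these libraries.

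**Figure D3:**
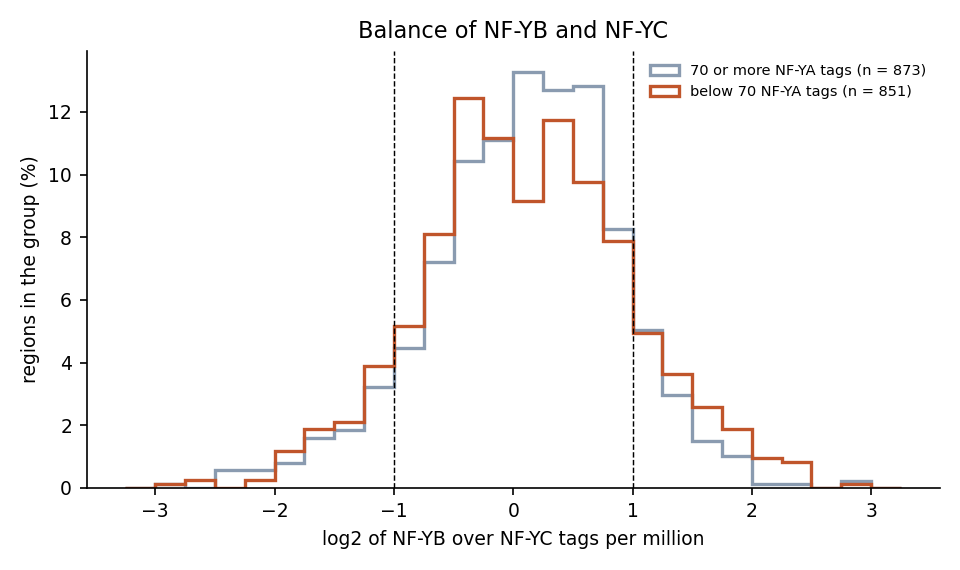
Distribution of the log2 ratio of NF-YB to NF-YC RPM in the 851 members (orange) and the 873 stronger regions (grey), in percent of each group; dashed lines mark 2-fold either way. Both distributions centre slightly above 0, and 24.6% of the members lie outside the dashed lines.

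Some members had a strong site of NF-YB. The highest NF-YB count was on chromosome 9 at 62497371 to 62497531, with 220 NF-YB tags (95% interval 192 to 251), 63 NF-YA tags (48.4 to 80.6) and 26 NF-YC tags (17.0 to 38.1). By tags it ranked 46 among NF-YB sites, 1192 among NF-YA sites and 1770 among NF-YC sites. NF-YB exceeded NF-YC there 6.95-fold (4.62 to 10.9), the highest ratio among the members. In 4 of the 5 members with most NF-YB tags, NF-YC had fewer RPM than NF-YA.

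The exception was the region of chromosome 11. Chromosome 11 at 33998591 to 33998671 held 185 NF-YB, 60 NF-YA and 73 NF-YC tags, and chromosome 13 at 23854271 to 23854511 held 185, 66 and 49 tags. Chromosome 14 at 118331631 to 118331971 had 161 NF-YB, 47 NF-YA and 24 NF-YC tags, with an NF-YC site 340 bp wide. Chromosome 17 at 23837231 to 23837351 had 154 NF-YB, 64 NF-YA and 35 NF-YC tags. NF-YB was the highest subunit in RPM at all 5, an order largely set by the choice by NF-YB tags and the limit on NF-YA tags. It exceeded NF-YC by 2.08-fold at the least (the region of chromosome 11; 1.58 to 2.77).

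High ratios of NF-YB to NF-YC also came from regions where NF-YC barely passed its minimum. Beside the regions of chromosomes 9 and 14, the 5 highest ratios included chromosome 7 at 36054831 to 36054991 (106 NF-YB, 47 NF-YA and 16 NF-YC tags; ratio 5.44, 3.20 to 9.87). They also included chromosome 8 at 94528431 to 94528591 (98, 39 and 15 tags; 5.37, 3.10 to 9.96) and chromosome 17 at 79312231 to 79312331 (113, 42 and 18 tags; 5.16, 3.12 to 9.02). With lists ending at 14 or 15 tags, a member cannot show a ratio much beyond these unless its stronger partner has more tags.

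Other members were led by NF-YC. Chromosome 11 at 114964971 to 114965051 held 176 NF-YC tags (151 to 204), 47 NF-YA tags (34.5 to 62.5) and 66 NF-YB tags (51.0 to 84.0), and ranked 13 among NF-YC sites but 827 among NF-YB and 1685 among NF-YA sites. NF-YC exceeded NF-YB 3.24-fold there (2.43 to 4.37). Its folds over input were low for such tag counts (23.6 for NF-YC, 8.05 for NF-YA and 7.28 for NF-YB), the last 2 near the authors' minimum of 7. Chromosome 11 at 86171791 to 86171871 was alike, with 142 NF-YC, 57 NF-YA and 86 NF-YB tags and folds of 24.5, 9.77 and 12.2.

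The sharpest lean to NF-YC was on chromosome 2 at 168078331 to 168078411. This region held 121 NF-YC tags (100 to 145), 24 NF-YA tags (15.4 to 35.7) and 19 NF-YB tags (11.4 to 29.7), so NF-YC exceeded NF-YB 7.75-fold (4.75 to 13.3). The 3 centres lay within 20 bp of each other and the fold was 73.1 for NF-YC, against 14.4 for NF-YA and 9.44 for NF-YB. The 2 remaining regions with most NF-YC tags were more even: chromosome 2 at 180008291 to 180008431 (106 NF-YC, 48 NF-YA and 75 NF-YB tags) and chromosome 13 at 64376311 to 64376431 (103, 64 and 94 tags).

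At the low end of the NF-YB to NF-YC ratio, chromosome 2 appeared 3 times among 5 regions. Apart from the region at 168078331, these were chromosome 2 at 144381871 to 144381971 (56 NF-YA, 16 NF-YB and 83 NF-YC tags; NF-YC 6.31-fold above NF-YB, 3.67 to 11.6) and at 30219551 to 30219711 (66, 25 and 91 tags; 4.43-fold, 2.82 to 7.20). The others were chromosome 12 at 56937151 to 56937311 (56, 17 and 92 tags; 6.58-fold, 3.90 to 11.8) and chromosome 5 at 150444051 to 150444131 (38, 23 and 83 tags; 4.39-fold, 2.74 to 7.30). Here NF-YB was the partner near its minimum of 15 tags, with 16, 17 and 19 tags at 144381871, 56937151 and 168078331. Its folds at these regions were 7.95, 8.44 and 9.44, where the minimum is 7. At all 5 regions NF-YA lay between the others in RPM, as at 144381871 with 7.29 for NF-YC, 4.88 for NF-YA and 1.15 for NF-YB.

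The members with fewest NF-YA tags mostly had few tags of the partners too. Chromosome 11 at 31270091 to 31270211 held 14 NF-YA tags beside 35 of NF-YB and 18 of NF-YC, and chromosome 2 at 181497911 to 181498071 held 14, 23 and 15 tags. The other 3 held 15 NF-YA tags: chromosome 2 at 165963111 to 165963231 with 16 NF-YB and 47 NF-YC tags, chromosome 1 at 88336831 to 88336931 with 37 and 22 tags, and chromosome 9 at 120036771 to 120036891 with 15 and 23 tags. The Poisson interval of 15 NF-YA tags runs from 8.40 to 24.7, and the interval of 47 NF-YC tags (34.5 to 62.5) lies above it.

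All 3 sites were within 5 tags of their minimum at 7 members (0.823%, 0.331 to 1.69), which are 0.406% of all regions of 3 subunits. The 873 stronger regions could not qualify, because the rule gives them 70 or more NF-YA tags. The lowest summed signal was on chromosome 12 at 110777351 to 110777591, with 16 tags of NF-YA, 17 of NF-YB and 14 tags of NF-YC. Next came chromosome 5 at 122511131 to 122511331 (15, 18 and 15 tags) and chromosome 3 at 32657551 to 32657731 (19, 15 and 14 tags). The NF-YC site was within 5 tags of its minimum at 166 members (19.5%, beside 9.8% of all regions of 3 subunits), the NF-YB site at 124 (14.6%, beside 7.6%) and the NF-YA site at 41 (4.82%, beside 2.38%). For NF-YA the rule places all such regions among the members, so that share is a description. In the stronger group 3 NF-YC and 7 NF-YB sites were so near the minimum, so nearly all such regions were members.

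The 3 centres lay close together in the members, though less so than in the stronger group. The median distance was 30 bp between NF-YA and NF-YB (20 bp in the stronger group), 30 bp between NF-YA and NF-YC (20 bp) and 30 bp between NF-YB and NF-YC (30 bp). Distances of at most 50 bp between NF-YA and NF-YB were seen at 80.7% of members (77.9 to 83.3) and at 87.7% of stronger regions (85.4 to 89.8). Such distances of NF-YC from NF-YA were seen at 78.0% (75.1 to 80.8) and 86.7% (84.3 to 88.9). Those between the 2 partners were seen at 78.5% (75.6 to 81.2) and 80.1% (77.3 to 82.7). The wider spacing in the members was seen in the distances from NF-YA, whereas the intervals for the 2 partners overlapped. As the groups were set by NF-YA tags, this is a description, and the part of the limit in it was not tested. The caller scanned in windows of 20 bp, which sets the grain of these distances.

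The span from the first to the last of the 3 centres had a median of 50 bp in the members (quartiles 30 and 70) and 40 bp in the stronger group (20 and 60). It was at most 50 bp at 61.8% of members (58.5 to 65.1) and 71.8% of stronger regions (68.7 to 74.8), and over 200 bp at 5 members. Where the 3 centres differed, NF-YA lay between the others at 34.1% of 621 members (30.4 to 38.0) and at 46.2% of 543 stronger regions (42.0 to 50.5). In the members the middle place was shared almost evenly with NF-YB (34.8%) and NF-YC (31.1%). The part of the limit on NF-YA tags in this order was not tested either. Neither partner lay to a preferred side along the chromosome: NF-YB was at the higher coordinate than NF-YA at 50.5% of members with distinct centres (46.9 to 54.0), and NF-YC at 50.5% (46.9 to 54.1).

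Site width moved with these distances. In the members 38.5% of NF-YA sites (35.3 to 41.9) were 40 bp wide, the shortest width called, against 65.8% (62.5 to 68.9) in the stronger group. The corresponding shares were 48.8% and 66.3% for NF-YB and 35.6% and 53.2% for NF-YC. All 3 sites were at most 60 bp wide at 282 members (33.1%) and 533 stronger regions (61.1%). Among these, the median span was 40 bp in both groups and the median distance 20 bp for each pair in both groups. Where a site was wider, the median span was 50 bp in both groups, and the median distance of NF-YC from NF-YA was 30 bp in the members and 20 bp in the stronger group.

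**Figure D4:**
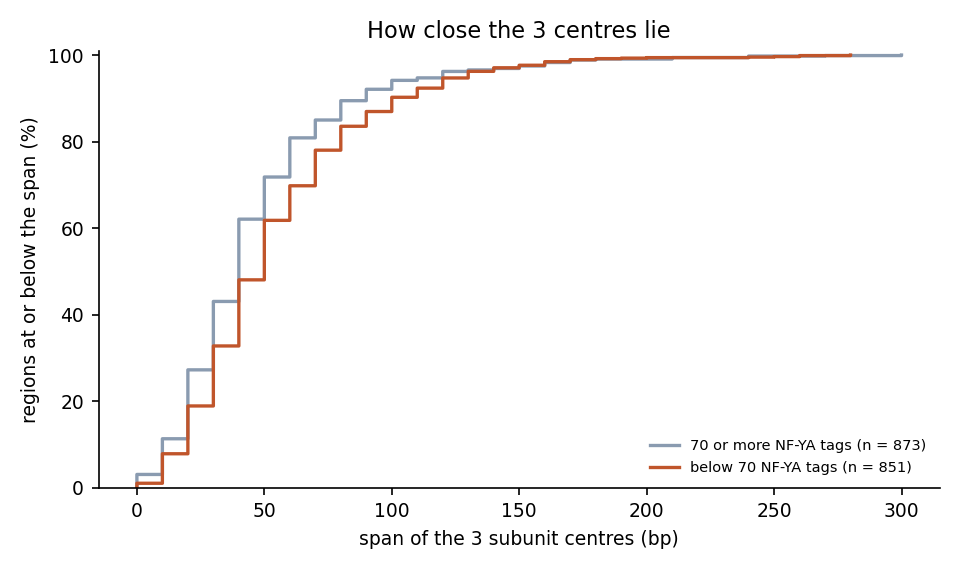
Cumulative share of regions by the span of their 3 subunit centres in bp, for the 851 members (orange) and the 873 stronger regions (grey). The orange line lies below the grey one at short spans, with 61.8% against 71.8% of regions at 50 bp or less.

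The members with all centres at the same position numbered 9 (1.06%, 0.485 to 2.00), beside 2.09% of all regions of 3 subunits and 27 stronger regions (3.09%, 2.05 to 4.47). The best covered of these were on chromosome 17 at 56147851 to 56147931 (60 NF-YA, 125 NF-YB and 71 NF-YC tags), chromosome 9 at 65434891 to 65434931 (57, 97 and 49 tags) and chromosome 7 at 4891751 to 4891791 (62, 77 and 42 tags). At each, NF-YB was the highest subunit in RPM, an order that the limit on NF-YA tags shapes. On chromosome 7 it was so narrowly, with 5.56 RPM against 5.40 for NF-YA, and the Poisson intervals of their tags overlapped (60.8 to 96.2 and 47.5 to 79.5). More than 1 site of a list was found in 3 members, of which the widest was chromosome 7 at 28258211 to 28258771, with 2 NF-YA and 2 NF-YB sites.

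Fold over input, the authors' ratio of site tags to background tags, ordered the regions differently from tags. The members' median NF-YA fold was 20.99, with 17.6 for NF-YB and 16.1 for NF-YC, against 38.4, 23.8 and 21.5 in the stronger group, so the gap between groups was narrower for the partners in fold than in tags. For most sites the fold gives back a whole number of input tags, as tags divided by fold and by the ratio of kept tags to input tags. The lowest number this can give is 1, and the number could be recovered, for the 851 members, at 822 NF-YB, 801 NF-YA and 798 NF-YC sites. Its median was 2 in the members and 4 in the stronger group for each subunit. Among members with a recovered value, an input of 1 tag was found at 28.6% for NF-YA (25.5 to 31.9), 29.8% for NF-YB and 27.1% for NF-YC. In the stronger group these shares of recovered values were 10.1%, 11.8% and 10.5%. Every listed site has a fold of at least 7, so a site of few tags is listed only where its input is low. The lower input of the members follows in part from this minimum and is given as a description.

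Split by fold, the members gave a larger set of low fold and a smaller one of high fold. Of the 851, 578 (67.9%) also had an NF-YA fold below 28.8, the median over all regions of 3 subunits. They had medians of 40 NF-YA, 40 NF-YB and 29 NF-YC tags and of 3 recovered input tags in each list. The other 273 members had similar tag counts (48, 36 and 30) and a median of 1 input tag in each list, which gave folds of 40.8, 28.8 and 25.4. Fold is tags over scaled input, so below 70 NF-YA tags a fold of 28.8 or more requires low NF-YA input. All lists were called against the same input, so these input numbers are a description of the split. Conversely, 269 regions of the stronger group had an NF-YA fold below 28.8, with medians of 95 NF-YA tags and 6 input tags. A limit on fold would thus keep 68.2% of its regions in common with the limit on tags.

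Members occurred on all 21 chromosomes, and the X chromosome stood apart from the 19 autosomes. Of its 32 regions with all 3 subunits, 26 were below the NF-YA limit (81.2%, 63.6 to 92.8), against 824 of 1691 on the autosomes (48.7%, 46.3 to 51.1). Single autosomes ranged from 40% (chromosomes 3 and 11) to 57.5% (chromosome 5), and each interval except that of chromosome 11 (32.2 to 48.2) included the autosomal value. The share on the X chromosome was noticed among 21 chromosomes, with no test of the difference. Chromosome Y had 1 region of all 3 subunits, which was a member (2862191 to 2862791; 36 NF-YA, 44 NF-YB and 47 NF-YC tags) with sites 380 to 520 bp wide.

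**Figure D5:**
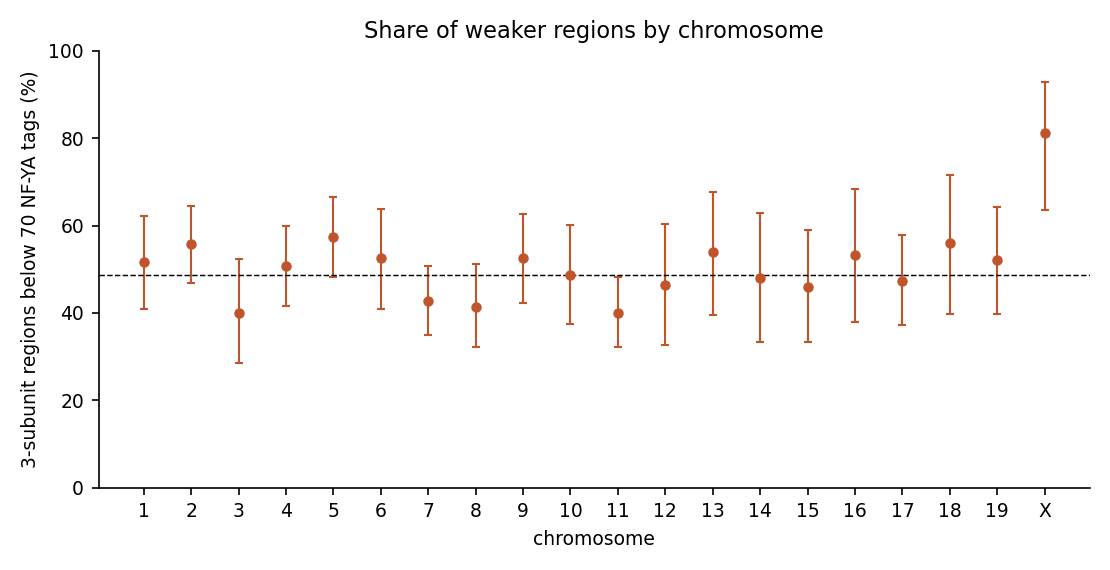
Percent of regions of all 3 subunits that had fewer than 70 NF-YA tags, by chromosome, with exact 95% intervals; the dashed line is the autosomal share of 48.7%, and chromosome Y with 1 region is left out. The X chromosome lies at 81.2%, with an interval above the dashed line.

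The other libraries, which the limit did not use, were also low on the X chromosome. Over its 32 regions of 3 subunits, NF-YB tags ranged from 15 to 115 with a median of 37, against a median of 59 on the autosomes, and NF-YC tags from 15 to 68 with a median of 23, against 45. The medians for NF-YA were 43.5 and 71. Fold was not lower there. On the X chromosome the median NF-YA fold was 31.5 (28.8 on the autosomes), that of NF-YB 21.9 (20.4) and that of NF-YC 19.3 (18.5). Input was lower there too, with an input of 1 tag at 43.8% of the X-linked regions with a recovered NF-YA value and at 21.9% of the autosomal ones. By the median NF-YA fold in place of 70 tags, 14 of 32 X-linked regions (43.8%, 26.4 to 62.3) and 49.2% of autosomal ones (46.8 to 51.6) were on the weaker side, so the direction of the difference turned and the intervals overlapped. Tags were not adjusted for the number of copies of a chromosome, and its part in the lower tags was not tested.

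By description, NF-YA was the highest subunit in RPM at 19 of the 26 X-linked members, NF-YB at 4 and NF-YC at 3. The highest combined partner signal was at 136991051 to 136991131, with 84 NF-YB, 35 NF-YA and 18 NF-YC tags (NF-YB 3.84-fold above NF-YC, 2.29 to 6.78). The region at 98989831 to 98989931 leaned to NF-YC, with 33 NF-YB, 53 NF-YA and 57 NF-YC tags (NF-YC 2.10-fold above NF-YB, 1.35 to 3.33). The region at 159267251 to 159267491 did so more strongly, with 16 NF-YB, 23 NF-YA and 43 NF-YC tags (3.27-fold, 1.80 to 6.22). At 70163771 to 70163891 the subunits were even, with 46 NF-YB, 60 NF-YA and 41 NF-YC tags. These 4 were picked after their values were seen and do not stand for the 26, as were the close neighbours and windows named next.

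Members had other regions nearby about as often as the regions of the series at large. Another region of any kind lay within 10 kb of 143 members (16.8%, 14.4 to 19.5), where 17.8% of all 5350 regions had one, and within 1 kb of 46 members (5.41%, 3.98 to 7.14), where 5.68% of all had one. Of the 143 nearest neighbours, 41 held all 3 subunits (21 of them members and 20 of the stronger group), 40 held NF-YA alone, 21 NF-YA with NF-YB, 17 NF-YC alone, 14 NF-YA with NF-YC, 7 NF-YB alone and 3 both partners without NF-YA. NF-YC alone was the nearest kind for 11.9% of these members (17 of 143; 7.08 to 18.4). It was so for 2.91% of the 172 stronger regions with such a neighbour (5 regions; interval up to 6.65). Over all regions of 3 subunits with such a neighbour the share was 6.98% (22 of 315; 4.43 to 10.4), and this interval overlapped that of the members. The kind was singled out from those listed above, with no test of the difference. The median distance to the nearest region was 57.2 kb. With sites of p at or below 0.0001, 5.61% of members had a region within 10 kb. Within 1 kb, 10 members neighboured another region of all 3 subunits.

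Of these 10, 6 lay beside a region of the stronger group and 4 beside another member. On chromosome 15 the member at 99224031 to 99224131 (23 NF-YA, 41 NF-YB and 18 NF-YC tags) lay 807 bp from a region of 163 NF-YA, 61 NF-YB and 76 NF-YC tags. On chromosome 11 the member at 23155531 to 23155631 (58, 30 and 36 tags) lay 337 bp from a region of 91, 59 and 83 tags. In 2 cases both neighbours were members: chromosome 9 at 111425711 to 111425871 (42, 51 and 14 tags) and at 111426511 to 111426751 (66, 102 and 27 tags), 767 bp apart, and chromosome 7 at 88296251 to 88296491 (19, 31 and 36 tags) and at 88297191 to 88297411 (19, 19 and 25 tags), 987 bp apart. The pair on chromosome 9 leaned to NF-YB in both regions. Chromatin was sheared to about 200 to 500 bp, so tags of such close neighbours need not be independent.

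Over longer stretches, 752 of the 851 members were the sole member in their 100 kb window, and 4 windows held 3 or more. The same count over all regions is not given here, so these numbers stand without a background. The window of chromosome 13 from 23800001 to 23900000 held 4 members among its 10 regions, with 15, 86, 90 and 185 NF-YB tags in order of position, 19, 36, 43 and 49 NF-YC tags, and 16, 60, 42 and 66 NF-YA tags. The window of chromosome 17 from 34400001 to 34500000 held 4 members among 4 regions and no stronger one. Its members at 34428691 (35 NF-YA, 84 NF-YB and 27 NF-YC tags) and 34433151 (25, 74 and 14 tags) leaned to NF-YB, by 2.56-fold and 4.34-fold over NF-YC, while the one at 34442731 (34, 52 and 42 tags) was even and the one at 34400051 (32, 20 and 32 tags) leaned to NF-YC. The window of chromosome 19 from 44300001 to 44400000 held 4 members with near-even signals, from 62, 79 and 78 tags at 44322811 down to 16, 24 and 19 tags at 44389031. The window of chromosome 4 from 106200001 to 106300000 held 3, with 29 to 35 NF-YA, 22 to 40 NF-YB and 24 to 38 NF-YC tags. Neighbouring members could thus differ in the balance of NF-YB and NF-YC, as on chromosome 17, or match in it, as on chromosome 19.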

How the data were processed

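Per the submitters' processing notes, Bowtie was the aligner and mm9 the build. The sources used here give no version of Bowtie. Sites were called per library with SISSRs 1.4 against 1 input of 13767116 tags, with p 0.001, e-value 10 and 1 tag kept per position, per the file headers. Tag counts per site were used as deposited, with no normalization by the authors, and RPM was computed from them with the kept tags of each library. The deposited fold is the ratio of site tags to background, at least 7, and the deposited p-value served an alternative filter alone. Keeping 1 tag per position caps strong sites.

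Where a list had 2 sites in a region, the one with most tags stood for it. By rule, the named regions are the 5 members with most NF-YB tags, most NF-YC tags, fewest NF-YA tags, and highest and lowest NF-YB to NF-YC ratio, and the 3 with the lowest sum, the closest centres and the nearest place to the limit on either side; others are named as chosen after their values were seen. The members, lists and comparisons were chosen with earlier results of these data known. The functions were tested on simulated data. Input reads and knockdown arrays were not analysed here. Gene and promoter tables of another build were not used, so the planned CCAAT, promoter and gene-list results were not run. Alternatives varied the joining of sites, the NF-YA limit, site filters, scaling and neighbour distance. Computation used pandas 2.3.3, scipy 1.17.1 and numpy 2.4.6 in Python 3.11.15, with matplotlib 3.10.9 for plots.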

Additional observations from a re-analysis of the deposited data

How the results depend on the processing

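Of 120 alternative values over 13 settings and 11 results, 100 stayed within 1.5 times the reported count or within the reported 95% interval over regions. Sites with p at or below 0.0001 left 196 members, with 28.2% of weaker NF-YA regions holding all 3 subunits, 5.61% of members within 10 kb of another region and a median of 2.81 RPM for NF-YC. Sites of at least 20 tags gave medians of 3.32 (NF-YB) and 2.98 RPM (NF-YC) and 13.8% with a neighbour. Setting the NF-YA limit by fold gave 3.54 and 3.25 RPM, NF-YA highest at 56.9%, a 2-fold difference at 20.8% and 43.8% of X-linked regions on the weaker side, against 81.2% by tags. Scaling to all tags of a library gave 2.07 and 1.78 RPM. A limit of 60 tags gave 2.37 RPM for NF-YC and 21.2% with all 3, and a limit of 80 gave 26.0%. Overlapping intervals gave 19.9% with all 3 and a median of 20 bp between NF-YA and NF-YB. Neighbours within 50 kb were found at 47.7% of members. Leaving out chromosome X and the settings for X-linked regions were chosen after seeing the data. By fold the X-linked share was below the autosomal 49.2%, a turn in direction from the comparison by tags. NF-YA was highest at 48.5% of members with a limit of 60 tags, at 49.5% with p at or below 0.0001 and at 48.5% with at least 20 tags, against 51.2% as reported. Settings for CCAAT and promoter shares were not run for want of mm9 sequence. No paired analysis was possible because the design holds 1 library of each subunit, and no replicate could be left out. The lists end at 14 or 15 tags, so a subunit missing from a region was not shown to be absent.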
